A study of Mus musculus with 14 samples.

Results

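The comparison described here set 4T1 cells carrying a CNOT7 over-expression construct against 4T1 cells carrying a control vector. 4T1 is a highly metastatic tumor line from the mammary gland of BALB/c mice, here grown in culture. The 3 samples labelled as over-expressing and the 3 labelled as control were taken from the sample labels, so the comparison used 6 of the 14 samples of the series. According to the study's methods, the over-expressed cDNA was human FLAG-tagged CNOT7 under a murine Pol2 promoter, in a lentiviral vector derived from pFUGW with blasticidin resistance. The control vector held a stuffer of non-coding DNA, and the methods name another backbone (pLenti6-V5-DEST) as its recipient, so backbone and transgene cannot be told apart in this comparison. The series describes the samples as biological replicates without saying whether each was a separate infection, a clone or a culture. The numbers in the sample titles were not explained, and the number before the point is not shared by the 2 groups, so whatever it marks cannot be told apart from the construct. CNOT7 replicates 2 and 3 both carry 5 before the point, while the vector control samples carry 1, 6 and 7. Whether those CNOT7 replicates are independent of each other is therefore not known. The p-values therefore measure no more than the spread among the arrays, which may be technical.

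CNOT7 is a nuclease subunit of CCR4-NOT, a large complex that removes adenosines from the 3′ ends of mRNAs. An mRNA whose tail has been trimmed in this way is translated poorly and is then decapped or degraded. The complex is built on the scaffold CNOT1. It has no strong preference for a sequence of its own and is brought to its targets by adaptors such as TOB1, by RNA-binding proteins that read the 3′ UTR, and by TNRC6 proteins bound to microRNA-loaded Argonaute. The comparison asked which transcripts differ when more CNOT7 is made. Values are RMA log2 intensities from Affymetrix Mouse Gene 1.0 ST arrays, on which a difference of 1 is a 2-fold difference. A probe set is the group of probes that reads 1 transcript, and 21789 probe sets with exactly 1 gene symbol, covering 19938 genes, were compared.

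The 6 arrays were alike in brightness, with medians of 6.31 to 6.37, and they correlated at r = 0.986 to 0.995 in every pair. The median level of olfactory receptor genes, which marks background, was 3.92 to 3.97. Epithelial markers of the tumor cells were present, with Krt8 at 11.13 to 11.80 in CNOT7 over-expressing cells and at 11.40 to 11.83 in vector control cells. The leukocyte marker Ptprc, the endothelial markers Pecam1, Cdh5 and Kdr and the adipocyte marker Adipoq lay between 4.52 and 5.32 in all 6 samples. Other such markers lay higher, with the T cell marker Cd3e at 5.79 to 6.01 and the adipocyte marker Plin1 at 5.47 to 5.81. The macrophage marker Cd68 was at 6.77 to 8.57 and the fibroblast marker Pdgfra at 6.83 to 8.89. In a principal component analysis the components did not follow the construct. The component with 32.5% of the variance set vector control replicate 2 apart, and that with 29.9% placed CNOT7 replicates 1 and 3 at opposite ends.

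Cnot7 itself was no higher on the arrays of the over-expressing cells. Cnot7 measured 10.64, 10.02 and 10.08 in CNOT7 over-expressing cells, against 10.07, 10.52 and 10.15 in vector control cells. The groups overlapped fully, and the difference was 0.00 with a 95% interval of -0.56 to 0.56 (limma, adjusted p = 1.0; exact two-sided permutation p = 1, where 0.1 is the smallest p that 3 against 3 samples allow). Mouse probes need not detect a human cDNA, and whether this probe set also reads the transgene was not tested.

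The other subunits of the complex stayed close to their control levels, and the plot of subunits and adaptors shows both groups on top of each other. Of the 12 subunits, 8 lay higher and 4 lower, with a median difference of 0.01, equal to the 0.01 over all genes tested. For 10 of the 12 the 95% interval of the difference lay within 0.5 of 0. The scaffold Cnot1 measured 11.78, 11.36 and 11.23 in CNOT7 over-expressing cells, against 11.24, 11.56 and 11.25 in vector control cells. Cnot8, the closest paralog of Cnot7, measured 8.95, 9.13 and 8.96 in CNOT7 over-expressing cells, against 8.74, 9.16 and 8.98 in vector control cells. The second class of catalytic subunits, Cnot6 and Cnot6l, differed by -0.06 and 0.03. Cnot3, a regulatory subunit of the NOT module, was the only subunit whose groups did not overlap, at 10.44, 10.59 and 10.49 in CNOT7 over-expressing cells and 10.40, 9.98 and 10.41 in vector control cells. Its difference of 0.24 (SE 0.12) was 0.10 without vector control replicate 2. Cnot3 was thus 1 of 12 without overlap, against 7.77% of all genes in either direction.

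**Figure D1:**
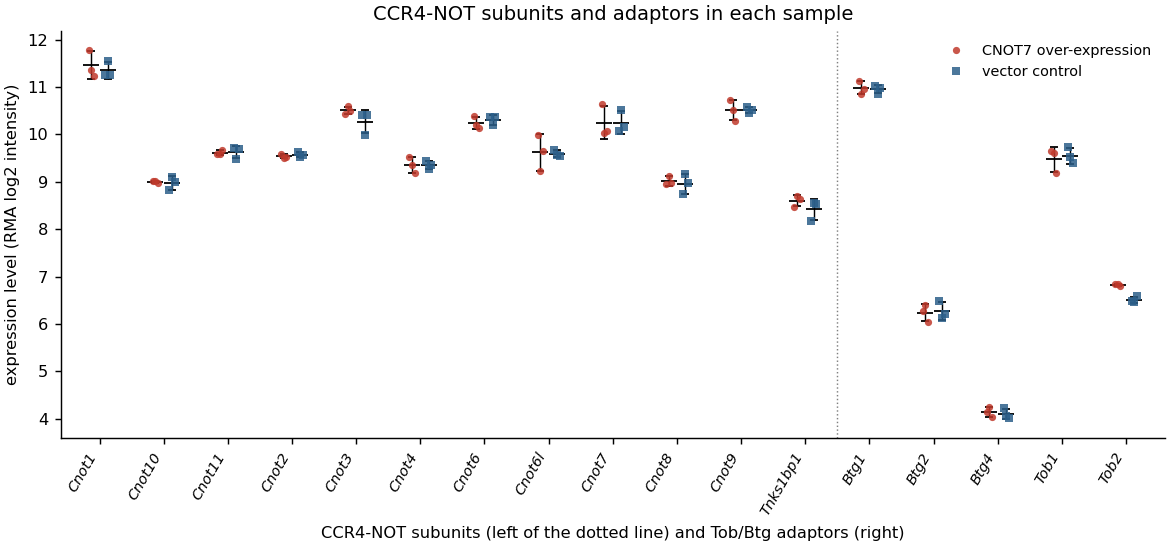
Expression level (RMA log2 intensity) of the CCR4-NOT subunits and of the Tob and Btg adaptors. Points are samples, 3 per group, with CNOT7 over-expression (red circles) left of vector control (blue squares), and black bars give the mean ± SD; the groups sit apart for Tob2 and, narrowly, for Cnot3.

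Among the Tob and Btg proteins, which bind the CNOT7 and CNOT8 subunits and link them to RNA-binding proteins, Tob2 lay apart from its control. Tob2 measured 6.84, 6.84 and 6.81 in CNOT7 over-expressing cells, against 6.48, 6.46 and 6.59 in vector control cells. Each group was tight, with an SD of 0.02 and 0.07, and the difference was 0.32 (SE 0.07, limma, unadjusted p = 0.00128, adjusted p = 1.0). Tob1, the better known adaptor, measured 9.64, 9.60 and 9.18 in CNOT7 over-expressing cells and 9.73, 9.52 and 9.39 in vector control cells, and its groups overlapped. Btg1, Btg2 and Btg4 differed by -0.03 to 0.04, and Btg3 was not among the probe sets compared. Of 34 measured proteins that recruit the complex through 3′ UTRs, 21 lay higher, with a median difference of 0.01. In that list the groups did not overlap for 1 of 34 on the higher side and 0 on the lower side, against 4.38% and 3.39% of all genes. It was Tnrc6b, a TNRC6 protein of the microRNA pathway, at 8.60, 8.63 and 8.60 in CNOT7 over-expressing cells and 8.28, 8.35 and 8.37 in vector control cells. Of 41 other decay factors (decapping, exosome, nonsense-mediated decay) 22 lay higher, with a median of 0.02.

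No gene passed the test. After Benjamini-Hochberg adjustment over all 21789 probe sets, 0 lay higher and 0 lower at an adjusted p under 0.05 in limma, and the methods' t-test also called 0. At an unadjusted p under 0.05 limma counted 562 probe sets, 2.58% of those tested (324 higher, 1.49%, and 238 lower, 1.09%), and the t-test 528. Over genes the count was 510 (2.56%), with 298 (1.49%) higher and 212 (1.06%) lower. The groups did not overlap for 1682 probe sets (7.72%), 936 higher (4.3%) and 746 lower (3.42%). Over genes that was 1549 (7.77%), with all 3 CNOT7 samples above the 3 vector control samples for 873 genes (4.38%) and all below for 676 genes (3.39%). Among genes with a mean level of at least 6 it was 595 (5.55%), 333 higher (3.11%) and 262 lower (2.45%). Without any difference, 3 against 3 samples separate in a share of 0.1 of cases. An unadjusted p under 0.05 then comes up in a share of 0.05. The counts given so far lay below these shares, so they do not by themselves show that any gene differed. The differences were small across the transcriptome. The median size of the difference was 0.06, 90% of genes differed by less than 0.20 and 99% by less than 0.52. Among genes with a mean level of at least 6 these sizes were larger, at 0.08, 0.25 and 0.63. For 20888 probe sets, 95.9%, the 95% interval of the difference lay within 1 of 0, so a 2-fold difference lay outside that interval, and for 17040 (78.2%) it lay within 0.5. Among the 10713 genes with a mean level of at least 6 these shares were 93.5% and 63.7%. The 13767 probe sets with no symbol or several, tested apart, gave 0 calls and 747 at an unadjusted p under 0.05 (5.43%).

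**Figure D2:**
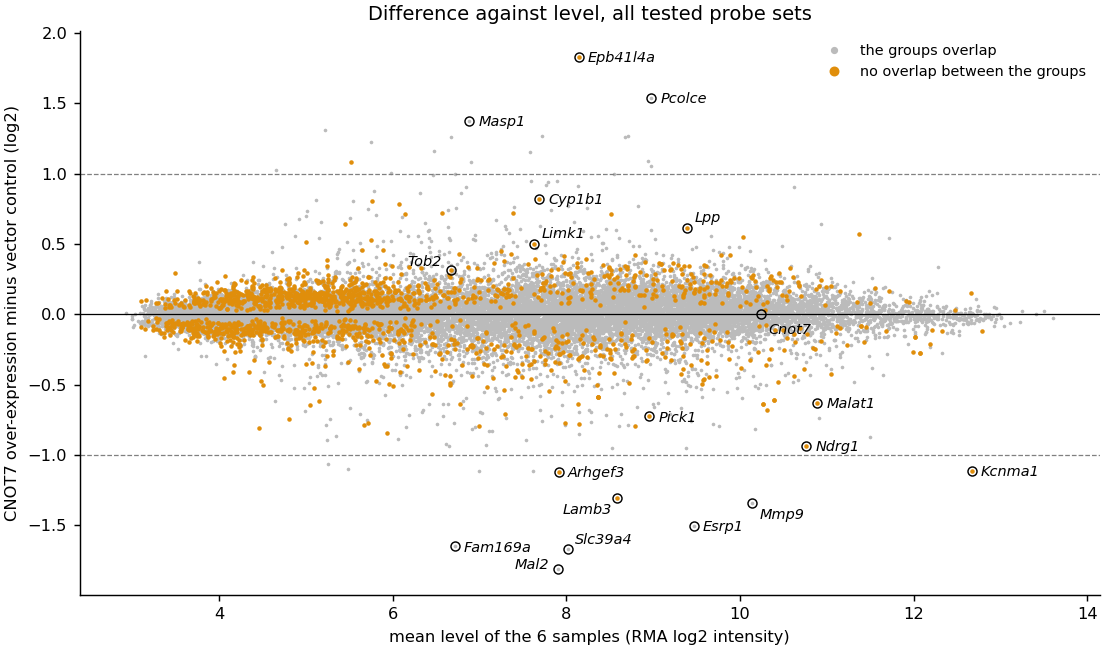
Difference between CNOT7 over-expression and vector control (log2, vertical axis) against the mean level of the 6 samples (RMA log2 intensity, horizontal axis) for all 21789 tested probe sets. Orange points are probe sets whose groups do not overlap, dashed lines mark a 2-fold difference, and circles mark genes described in the text; most of the points past the dashed lines are grey, since their groups overlap.

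Among genes with a mean level of at least 8, the 10 with the narrowest intervals were Ppia, Rpl10, Eef1a1, Ywhae, Eif4a1, Rpl23a, Rab10, Rps6, Ap2a1 and Pabpc1, with differences of -0.05 to 0.07. Pabpc1, the cytoplasmic poly(A)-binding protein that covers the tail CNOT7 removes, measured 13.17, 13.21 and 13.21 in CNOT7 over-expressing cells, against 13.31, 13.21 and 13.22 in vector control cells. Eif4a1, the helicase of the cap-binding complex, differed by 0.03, with an interval of -0.08 to 0.13. Cytosolic ribosomal protein genes had a median difference of -0.02 over 60 genes, and for 58 the interval lay within 0.5 of 0. The proteasome list had a median of -0.01, with 29 of 31 intervals within 0.5, and the oxidative phosphorylation list -0.06, with 39 of 42. Mitotic genes had a median of 0.05, with 35 of 38 intervals that narrow. For 43 genes of DNA replication the median was -0.04, and 38 intervals were that narrow. Among them Ccne1, cyclin E, which drives entry into S phase, measured 9.16, 9.06 and 8.81 in CNOT7 over-expressing cells and 8.34, 8.87 and 8.37 in vector control cells, so its groups overlapped slightly.

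Of the genes whose groups did not overlap, Cyp1b1 had the largest difference upward among those with an unadjusted p under 0.05 and a higher group mean of at least 6. Cyp1b1, a cytochrome P450 that oxidizes estrogens and is induced through the aryl hydrocarbon receptor, measured 8.10, 8.20 and 8.01 in CNOT7 over-expressing cells, against 7.60, 6.86 and 7.38 in vector control cells. That is a difference of 0.82 (SE 0.25, 1.77-fold, limma adjusted p = 1.0), and it was 0.61 to 0.98 with any 1 sample left out. Lpp, a focal adhesion protein of the zyxin family, measured 9.43, 9.81 and 9.86 in CNOT7 over-expressing cells, against 8.76, 9.26 and 9.23 in vector control cells. Limk1, the kinase that inactivates cofilin and so stabilizes actin filaments, measured 7.72, 7.78 and 8.15 in CNOT7 over-expressing cells, against 7.33, 7.37 and 7.44 in vector control cells. The differences were 0.62 (SE 0.25) for Lpp and 0.50 (SE 0.19) for Limk1.

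Erc1, a scaffold of cell-edge adhesion platforms, was read by 3 probe sets, and in each of them the groups did not overlap (0.39, 0.43 and 0.45). Efnb2, the ephrin-B2 ligand, measured 10.27, 9.69 and 10.01 in CNOT7 over-expressing cells, against 9.53, 9.60 and 9.58 in vector control cells. Nfat5, the transcription factor of the osmotic stress response, measured 10.19, 9.90 and 10.21 in CNOT7 over-expressing cells, against 9.51, 9.79 and 9.74 in vector control cells. Efnb2 and Nfat5 lie on chromosome 8, whose genes lay 0.33 above their means in CNOT7 replicate 1, and both differed by 0.37 with the chromosome medians subtracted. Norad, a long noncoding RNA that sequesters Pumilio proteins, lay higher by 0.34 and 0.32 in its 2 probe sets. Pumilio proteins themselves recruit CCR4-NOT, and of these Pum2 lay higher by 0.11 with overlapping groups. For Norad the CNOT7 samples measured 9.57, 9.57 and 9.45, against 9.13, 9.01 and 9.43 in vector control cells, so that the groups touched at vector control replicate 3. Heatr5a (0.36), Mark4 (0.25), a microtubule affinity-regulating kinase, and Mkrn2 (0.22), a makorin ring finger protein, also had groups that did not overlap. Klhdc8a (0.45), Smim26 (0.33) and Krtap17-1 (0.19) were of the same kind. For Mamld1 (0.53) 1 sample carried the value, with 6.69, 5.56 and 5.81 in CNOT7 over-expressing cells and 5.55, 5.46 and 5.46 in vector control cells, and 0.19 remained without CNOT7 replicate 1.

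**Figure D3:**
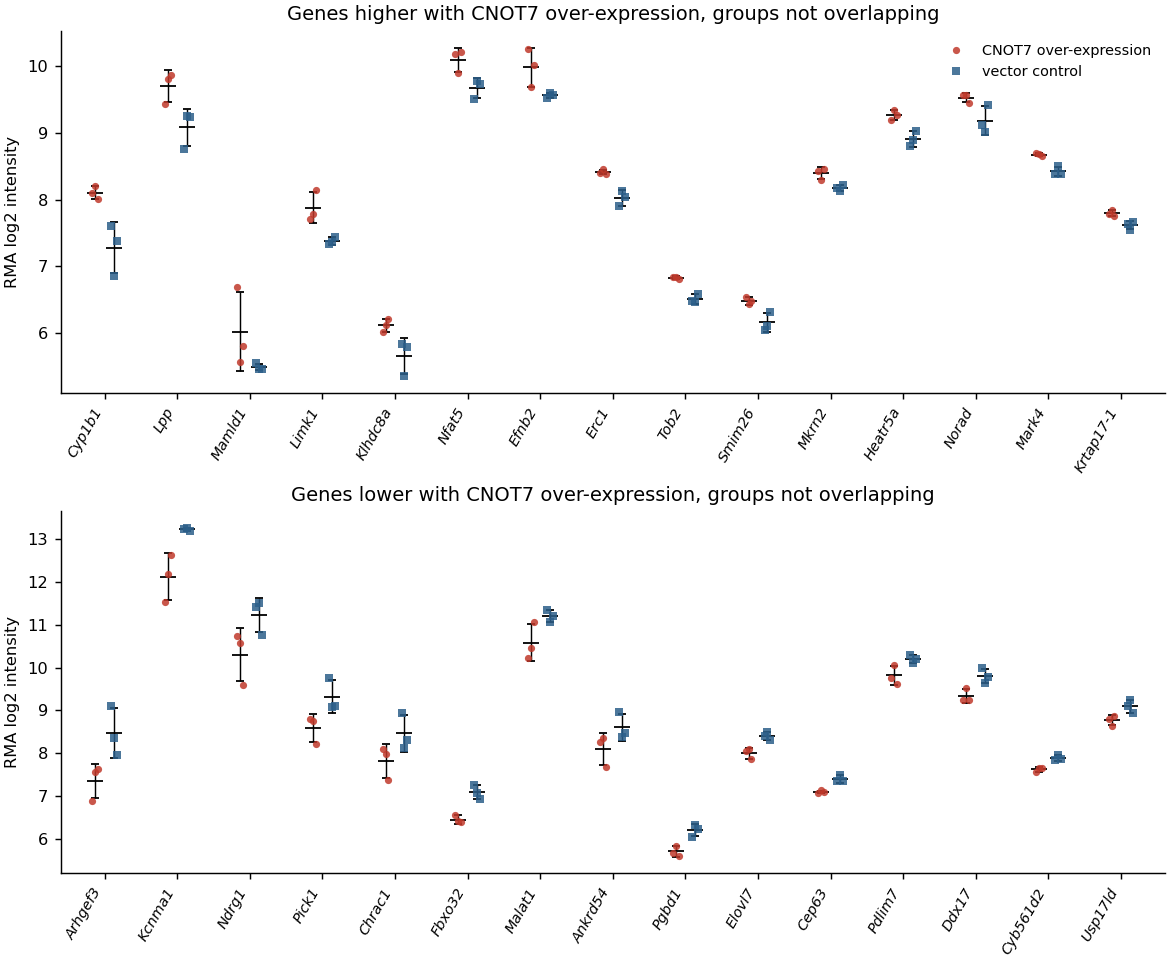
Expression level (RMA log2 intensity) of the genes chosen for size or for the smallest unadjusted p among those whose groups do not overlap, higher with CNOT7 over-expression in the upper panel and lower in the lower panel. Points are samples, 3 per group, with CNOT7 over-expression (red circles) left of vector control (blue squares), and black bars give the mean ± SD; Kcnma1 shows 3 vector control samples close to 13.2 and 3 lower, scattered CNOT7 samples.

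On the lower side, the brighter probe set of the potassium channel gene Kcnma1 stood out among genes whose groups did not overlap. Kcnma1 encodes the large-conductance channel opened by calcium and voltage. This probe set measured 11.54, 12.19 and 12.62 in CNOT7 over-expressing cells, against 13.22, 13.26 and 13.20 in vector control cells. The vector control samples lay close together, while the CNOT7 samples were scattered, all below them. The difference of -1.11 (SE 0.22) left 46.3% of the control intensity and had the smallest p of the named genes in the limma fit across all genes (unadjusted p = 0.00033, adjusted p = 1.0). It was -1.36 to -0.82 with any 1 sample left out. The gene lies on chromosome 14, whose genes had medians of -0.27, 0.03 and 0.17 around their means in the same 3 CNOT7 samples, and the difference was -1.08 after these chromosome medians were subtracted. A further Kcnma1 probe set lay at background, at 4.40 to 4.49 in all 6 samples. The brighter and the dimmer probe set thus disagree on whether the gene is expressed. Whether the brighter one reads Kcnma1 transcripts was not tested. Of 17 potassium channel genes measured, 12 lay higher and 5 lower, with a median of 0.02.

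Arhgef3, an exchange factor for RhoA that also lies on chromosome 14, measured 6.90, 7.55 and 7.63 in CNOT7 over-expressing cells, against 9.10, 8.37 and 7.96 in vector control cells. The difference was -1.12 (SE 0.49), with both groups scattered. Ndrg1, a gene induced by hypoxia and described as a metastasis suppressor, measured 10.73, 10.58 and 9.59 in CNOT7 over-expressing cells, against 11.41, 11.52 and 10.77 in vector control cells. Its difference was -0.93 (SE 0.29, 0.524-fold, limma adjusted p = 1.0), and -0.58 without CNOT7 replicate 3. Fbxo32, which encodes the ubiquitin ligase atrogin-1, measured 6.56, 6.41 and 6.39 in CNOT7 over-expressing cells, against 7.26, 7.07 and 6.94 in vector control cells. Pick1, a PDZ and BAR domain protein of membrane traffic, lay at -0.73 (SE 0.25), Chrac1, a histone-fold subunit of chromatin remodelers, at -0.64 (SE 0.25) and Ankrd54 at -0.50 (SE 0.19). Without CNOT7 replicate 3 Chrac1 differed by -0.42 and Ankrd54 by -0.29, and without vector control replicate 1 Chrac1 differed by -0.40 and Ankrd54 by -0.32. Ndrg1, Fbxo32, Pick1, Chrac1 and Ankrd54 all lie on chromosome 15, segments of which lay low in CNOT7 replicate 3 and high in vector control replicate 1. Outside that chromosome, Elovl7, an elongase of long fatty acids, measured 8.06, 8.09 and 7.86 in CNOT7 over-expressing cells, against 8.40, 8.49 and 8.30 in vector control cells. Pdlim7, a PDZ and LIM domain protein of the actin cytoskeleton, differed by -0.38, Cep63, a centriole duplication factor, by -0.30 and Cyb561d2 by -0.26. Pgbd1 (-0.50) and Usp17ld (-0.33) also had groups that did not overlap. Usp17ld belongs to a family of near-identical copies, which the probes may not separate.

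A set of nuclear RNAs and small nucleolar RNAs lay lower together. Small nucleolar RNAs (snoRNAs) guide chemical modification of ribosomal RNA and are cut from introns of host genes. Of 51 snoRNA genes measured, 49 lay lower, with a median of -0.25, against 45.6% lower among all genes. In 18 of the 51 all CNOT7 samples lay below all vector control samples, and in 0 above, against 3.39% and 4.38% of all genes. The snoRNA genes had median deviations of -0.11, -0.20 and -0.10 around their means in CNOT7 over-expressing cells, against 0.18, 0.04 and 0.18 in vector control cells. The median was -0.28 to -0.21 with any 1 sample left out. Snora31 measured 7.11, 7.32 and 7.28 in CNOT7 over-expressing cells, against 7.65, 7.58 and 7.71 in vector control cells. Snora70 differed by -0.44 (SE 0.17) and Snord37 by -0.78 (SE 0.31).

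The same direction was seen in several long transcripts, some of them known as nuclear. Malat1, an abundant RNA of nuclear speckles, measured 10.22, 10.46 and 11.06 in CNOT7 over-expressing cells, against 11.35, 11.06 and 11.21 in vector control cells, a difference of -0.63 (SE 0.23). The groups touched at CNOT7 replicate 3 and vector control replicate 2. Ccnl2, a cyclin of splicing regulation whose transcript retains introns, measured 8.30, 8.24 and 8.52 in CNOT7 over-expressing cells, against 8.60, 8.62 and 8.77 in vector control cells. Ddx17, an RNA helicase encoded on chromosome 15, measured 9.25, 9.53 and 9.24 in CNOT7 over-expressing cells, against 9.99, 9.65 and 9.78 in vector control cells. Whether its transcript stays in the nucleus was not tested. It was lowest in CNOT7 replicate 3 and highest in vector control replicate 1, where segments of that chromosome lay low and high. Its difference of -0.47 was -0.41 without the first of these samples and -0.38 without the second. Clk1, a kinase of splicing factors kept partly as an intron-retaining nuclear transcript, differed by -0.32, and the Cajal body RNA Scarna13 by -0.31. In a list of 16 measured nuclear RNAs and snoRNA hosts, drawn up after these values were seen, 15 lay lower, with a median of -0.28. For 7 the groups did not overlap, all of them lower, against 3.39% of all genes. Since the members were picked with their values known, these counts are not independent evidence. The snoRNA host Gas5 was read by 4 probe sets, which differed by -0.08, -0.19, -0.42 and -0.78, and the groups did not overlap for the one at -0.42. Short noncoding RNAs made by other routes, also listed after values were seen, lay near their control levels. The RNA polymerase III transcript Rn7sk measured 13.25, 13.21 and 13.33 in CNOT7 over-expressing cells and 13.23, 13.28 and 13.22 in vector control cells, and Rny1, Rny3, Rmrp and Rpph1 differed by -0.03 to 0.06. RNA quality measures were not among the values used, so whether a difference in RNA preparation took part was not tested.

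Of 296 microRNA genes measured, 191 lay lower and 105 higher, against 45.6% lower among all genes. The groups did not overlap for 35 lower and 13 higher, against 3.39% and 4.38% of all genes, so the count on the higher side was at the level of all genes. Most were dim, and only 62 had a mean of at least 6. With a higher group mean of at least 6, an unadjusted p under 0.05 and no overlap, there were 4 lower and 1 higher. Mir18, Mir7-1 and Mirlet7d reached that level only in vector control cells (means 6.36, 6.25 and 6.12). Mir152 reached it only in CNOT7 over-expressing cells (6.02). The filter thus used the compared values, and these counts are not evidence on direction. The mature sequences of these 5 from RefSeq (GRCm38.p6) are shown so that their seeds can be compared. Capitals mark bases 2 to 8, the seed that pairs with target mRNAs.
mmu-miR-18a-5p: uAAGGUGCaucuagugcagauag
mmu-miR-7a-5p: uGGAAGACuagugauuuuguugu
mmu-let-7d-5p: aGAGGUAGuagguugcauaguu
mmu-miR-25-3p: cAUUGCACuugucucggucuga
mmu-miR-152-3p: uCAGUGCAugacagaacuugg
These 5 have 5 different seeds, so no seed was shared. Mir18, the gene of miR-18a, measured 5.30, 5.52 and 5.73 in CNOT7 over-expressing cells, against 6.44, 6.05 and 6.59 in vector control cells. Mir7-1, which lies in an intron of Hnrnpk, measured 5.76, 5.59 and 5.89 in CNOT7 over-expressing cells, against 6.40, 6.09 and 6.27 in vector control cells. Mirlet7d, of the growth-restraining let-7 family, differed by -0.37 (SE 0.12) and Mir25, which lies in an intron of the replication helicase gene Mcm7, by -0.22 (SE 0.08). Mir152, the exception, measured 6.16, 5.97 and 5.95 in CNOT7 over-expressing cells, against 5.89, 5.79 and 5.91 in vector control cells. Mir18 is part of the miR-17-92 cluster, a group of microRNAs cut from a single precursor and known as drivers of growth in several tumors. All 5 measured members of the cluster, which was listed after values were seen, lay lower (-0.84 to -0.41). So did the host transcript Mir17hg, at 4.43, 4.89 and 4.85 in CNOT7 over-expressing cells and 5.59, 5.12 and 5.39 in vector control cells. Mir17, Mir19a, Mir19b-1 and Mir20a ranged from 3.63 to 5.57, around the 4.89 that 90% of olfactory receptor probe sets stayed under. Whether these probe sets read the mature microRNA, its precursor or the host transcript was not given in the sources used here.

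Cholesterol synthesis genes lay lower as a group, and CNOT7 replicate 3 carried most of it. Of 20 measured, 19 lay lower, with a median of -0.35, against 0.01 over all genes. The genes had median deviations of 0.04, 0.12 and -0.62 in CNOT7 over-expressing cells, against 0.18, -0.10 and 0.35 in vector control cells. Idi1, isopentenyl diphosphate isomerase, measured 9.95, 10.02 and 8.10 in CNOT7 over-expressing cells, against 10.44, 9.54 and 10.48 in vector control cells. Hmgcs1, which makes the precursor of mevalonate, measured 10.35, 10.47 and 8.92 in CNOT7 over-expressing cells, against 10.58, 9.97 and 10.72 in vector control cells. Both lie on chromosome 13, whose genes had a median deviation of -0.25 in CNOT7 replicate 3, and the list median was -0.34 with chromosome medians subtracted. For 0 of the 20 genes did the groups stay apart, against 7.77% of all genes in either direction, and without CNOT7 replicate 3 the median was -0.11. Srebf2, the transcription factor of the pathway, differed by -0.26 (SE 0.16).

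Hypoxia and glycolysis genes also lay lower as a group, by less. Of 35 measured, 28 lay lower, with a median of -0.14, against 45.6% lower among all genes. For 6 the groups did not overlap, all of them lower, against 3.39% of all genes. These were Ndrg1 and the glycolytic enzyme genes Pgk1, Aldoa, Ldha, Tpi1 and Pkm. Pgk1 measured 11.96, 11.95 and 11.90 in CNOT7 over-expressing cells, against 12.28, 12.22 and 12.13 in vector control cells, a difference of -0.27 (SE 0.10). Aldoa measured 12.01, 12.04 and 12.20 in CNOT7 over-expressing cells, against 12.29, 12.32 and 12.26 in vector control cells. Ldha, Tpi1 and Pkm each differed by -0.12. Car9, the hypoxia-induced carbonic anhydrase, had widely overlapping groups, as it measured 9.39, 5.52 and 6.03 in CNOT7 over-expressing cells and 5.58, 9.43 and 6.95 in vector control cells. The list median was -0.05 without vector control replicate 2, in which the genes lay 0.34 above their means.

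Interferon response genes were set by that same sample. Of 45 measured, 36 lay lower, with a median of -0.14, but the medians per sample were -0.25, -0.01 and 0.07 in CNOT7 over-expressing cells, against -0.27, 0.88 and -0.37 in vector control cells. Irf7, the factor that amplifies the response, measured 5.91 to 6.56 in CNOT7 over-expressing cells, against 5.55, 8.98 and 5.45 in vector control cells. Without vector control replicate 2 the median of the list turned to 0.26. In the other direction, 18 of 24 endoplasmic reticulum chaperones and their regulators lay higher, with a median of 0.11 that was 0.02 without CNOT7 replicate 3. Hyou1, a large chaperone of the endoplasmic reticulum, measured 9.99, 10.30 and 10.53 in CNOT7 over-expressing cells, against 9.97, 9.71 and 10.21 in vector control cells. Hspa5, which encodes BiP, differed by -0.03. Only Sel1l, a part of the degradation machinery, had groups that did not overlap (0.19, SE 0.10). That is 1 of 24 on the higher side, against 4.38% of all genes.

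The remaining lists held smaller or more scattered differences. Of 38 mitotic genes 26 lay higher, against 54.4% of all genes, and 4 had groups that did not overlap, against 4.38% of all. Among them was Anln, the anillin scaffold of the cleavage furrow, at 11.90, 11.72 and 11.80 in CNOT7 over-expressing cells and 11.64, 11.63 and 11.65 in vector control cells. Mki67, the proliferation marker, differed by 0.08 (SE 0.09). Of the respiratory chain genes 32 of 42 lay lower, and Atp5j, a coupling subunit of the ATP synthase, measured 10.83, 10.96 and 10.72 in CNOT7 over-expressing cells, against 10.99, 11.02 and 11.06 in vector control cells. Tfeb, the transcription factor that drives lysosome genes, measured 6.84, 6.88 and 6.94 in CNOT7 over-expressing cells, against 6.56, 6.76 and 6.65 in vector control cells, while the lysosome and autophagy list had 15 of 30 genes on either side. Of 22 Ras and MAPK feedback genes 16 lay higher, and 0 were without overlap, against 7.77% of all genes in either direction. Their median was 0.11, which was 0.03 without CNOT7 replicate 3 and 0.26 without CNOT7 replicate 1. Chemokines and colony-stimulating factors had 17 of 26 lower, and Cxcl16 measured 9.52, 10.25 and 8.97 in CNOT7 over-expressing cells, against 10.35, 10.18 and 9.87 in vector control cells. Ccng1, a p53 target, differed by -0.32 (SE 0.17) without overlap, and the p53 list had a median of -0.03. The ATF4, antigen presentation, TGF-beta, ErbB, glutathione and heat shock lists had medians of -0.04 to 0.04.

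**Figure D4:**
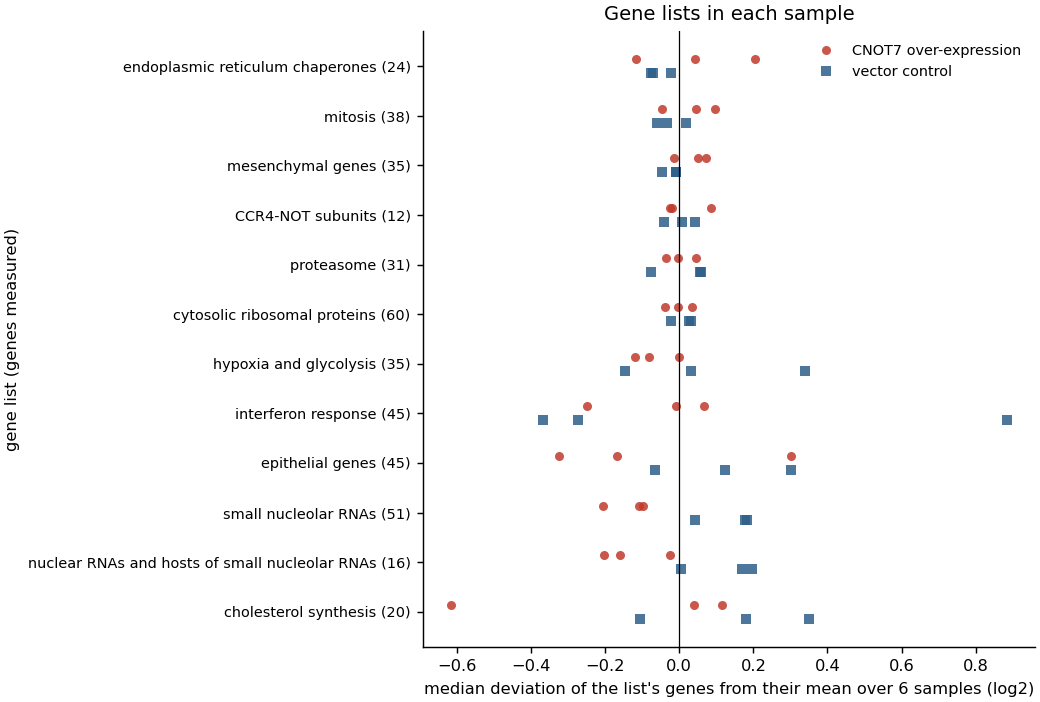
Median deviation of the genes of 12 lists from their means over the 6 samples (log2, horizontal axis), with the number of genes measured in brackets. Each point is a sample, CNOT7 over-expression (red circles) above vector control (blue squares); the groups sit apart for the small nucleolar RNAs and for the nuclear RNAs and hosts, while vector control replicate 2 stands alone at 0.88 for the interferon response and CNOT7 replicate 3 at -0.62 for cholesterol synthesis. The list of nuclear RNAs and hosts was drawn up after the values were seen.

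The widest differences in group means came from genes that varied within a group. In all, 28 genes differed by 2-fold or more, 16 higher and 12 lower, and in 24 of them a group had an SD of at least 1. Their groups did not overlap in 4 of the 28, namely Epb41l4a, Kcnma1, Lamb3 and Arhgef3, against 7.77% of all genes. Since the 28 were picked for the size of their difference, that count is not independent evidence. Epb41l4a, a band 4.1 protein, measured 8.87, 8.95 and 9.36 in CNOT7 over-expressing cells, against 8.28, 5.01 and 8.41 in vector control cells, so its 1.83 was 0.72 without vector control replicate 2. Pcolce, an enhancer of procollagen processing, measured 8.57, 9.34 and 11.34 in CNOT7 over-expressing cells, against 7.85, 8.58 and 8.20 in vector control cells, and its difference of 1.54 was 0.74 without CNOT7 replicate 3. Masp1 (1.37), a complement protease, Mmp3 (1.27), a matrix metalloproteinase, Serpinb2 (1.27), an inhibitor of plasminogen activators, and Pmp22 (1.26), a membrane protein of the claudin superfamily, had overlapping groups with a pooled SE of 0.85 or more. With any 1 sample left out Masp1 differed by 0.69 to 1.95, Mmp3 by 0.65 to 1.87, Serpinb2 by 0.90 to 1.70 and Pmp22 by 0.31 to 2.35. Lamb3, a chain of the basement membrane protein laminin-332, measured 8.81, 7.81 and 7.18 in CNOT7 over-expressing cells, against 9.30, 9.17 and 9.23 in vector control cells. Its difference was -1.30 (SE 0.65), and the 3 control samples lay close together. Of the 28 genes of integrins, laminins and basement membrane, 22 lay higher, among them Itgav by 0.29 (SE 0.12) and Itga6 by 0.30 (SE 0.13), so Lamb3 ran against its list.

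Epithelial genes followed single samples. Esrp1, an epithelial splicing regulator, measured 11.01, 9.73 and 5.42 in CNOT7 over-expressing cells, against 10.08, 10.58 and 10.01 in vector control cells. Its difference was -1.50 with all samples and 0.15 without CNOT7 replicate 3. Mal2, a protein of apical transport, measured 10.36, 5.69 and 4.96 in CNOT7 over-expressing cells, against 8.90, 9.72 and 7.82 in vector control cells, a difference of -1.81 that ranged from -3.49 to -0.79 with any 1 sample left out. Slc39a4, a zinc importer, differed by -1.67 (SE 0.94), Fam169a by -1.65 (SE 0.77) and Mmp9, a gelatinase, by -1.34 (SE 1.01). Mmp9 differed by -0.35 without CNOT7 replicate 1, and Slc39a4 by -0.87 without vector control replicate 2. Of 45 epithelial genes 38 lay lower, with a median of -0.18. That median was -0.03 without CNOT7 replicate 3, -0.04 without vector control replicate 2 and -0.44 without CNOT7 replicate 1. Of 35 mesenchymal genes 25 lay higher, with a median of 0.06. A score of each sample, the mean of the mesenchymal list minus that of the epithelial list, was -0.57, 0.23 and 0.69 in CNOT7 over-expressing cells and -0.19, -0.68 and 0.22 in vector control cells, so the groups overlapped widely. The tight junction scaffold Tjp1 went against its list, at 10.31, 10.71 and 10.48 in CNOT7 over-expressing cells and 10.25, 10.24 and 10.20 in vector control cells (0.27, SE 0.09). Most markers of other cell types stayed at low levels. The median level of the fibroblast list was 4.80 to 4.83 in CNOT7 over-expressing cells and 4.77 to 4.79 in vector control cells, with 9 of 10 markers higher by a median of 0.06, and Dcn was at 3.85 to 3.89 in CNOT7 over-expressing cells and 3.79 to 3.83 in vector control cells. Pdgfra, which marks fibroblasts, was well above background at 7.62, 7.95 and 8.89 in CNOT7 over-expressing cells and 6.83, 8.41 and 7.50 in vector control cells, and so was the lysosomal macrophage marker Cd68, at 6.77 to 8.57 in CNOT7 over-expressing cells and 7.48 to 8.27 in vector control cells. Their part in the results was not tested. The immune list had 9 of 19 markers higher, with a median level of 4.60 to 4.68 in CNOT7 over-expressing cells and 4.65 to 4.72 in vector control cells.

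Immediate early and AU-rich transcripts, classical targets of deadenylation, had a median of -0.05, with 21 of 40 lower. For 1 of the 40 the groups did not overlap on the lower side and for 1 on the higher side, against 3.39% and 4.38% of all genes. The lower one was Nfkbia, the inhibitor of NF-kappaB, at 9.18, 9.01 and 9.14 in CNOT7 over-expressing cells and 9.77, 9.44 and 9.40 in vector control cells (-0.43, SE 0.17). The higher one was Egr3, at 7.12, 7.14 and 7.44 in CNOT7 over-expressing cells and 6.95, 7.08 and 6.92 in vector control cells (0.25, SE 0.12). The study had picked transcripts inverse to Cnot7 over these same samples and the knockdowns, so the direction of that list is not independent evidence. Of 406 such genes measured, 249 lay lower and 157 higher, with a median of -0.04. For 10 the groups did not overlap on the lower side and for 4 on the higher side, both a smaller share than the 3.39% and 4.38% of all genes. A shorter list of the study held transcripts that it described as bound to the CNOT7 protein and inverse to Cnot7. It was not a part of the longer list as measured here. At an unadjusted p under 0.05 in limma it held 2 higher genes, against 1 in the longer list. Of its 135 measured genes, 54 lay lower and 81 higher, with a median of 0.02. For 3 of them the groups did not overlap on the lower side and for 4 on the higher side, again smaller shares than among all genes. Coq2, an enzyme of ubiquinone synthesis from that list, measured 7.74, 7.41 and 7.23 in CNOT7 over-expressing cells, against 7.89, 7.89 and 7.74 in vector control cells, so its groups met at 7.74. Sbno2 (-0.41) and Rnf19a (-0.33) had groups that did not overlap on the lower side, and Zfp462 (0.34) on the higher side. The list parallel to Cnot7, chosen the same way, had 140 of 237 genes higher, with a median of 0.02.

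Whole chromosomes differed between single samples, and part of the differences above lay on them. Over 10713 genes with a mean of at least 6, the genes of a chromosome should scatter around 0 in each sample, and in 23 of 120 pairs of chromosome and sample their median lay at least 0.1 away. Chromosome 8, which carries Cnot7, had medians of 0.33, -0.12 and -0.10 in CNOT7 over-expressing cells, against -0.15, 0.18 and -0.11 in vector control cells. Cnot7 was highest in the same 2 samples, CNOT7 replicate 1 and vector control replicate 2. With these medians subtracted it measured 10.31, 10.11 and 10.16 in CNOT7 over-expressing cells, against 10.18, 10.31 and 10.24 in vector control cells, a difference of -0.05. The map of chromosome medians shows further blocks of this kind on chromosomes 3, 5, 14 and 17, in other combinations of samples. Copy number was not measured, so whether gains or losses of chromosomes took part was not tested.

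**Figure D5:**
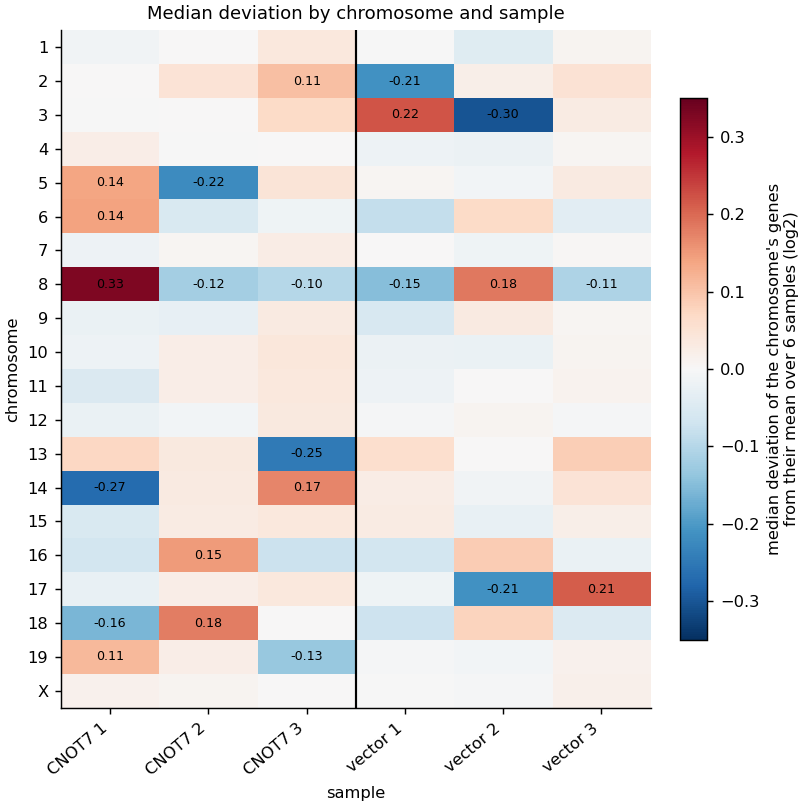
Median deviation (log2, color scale) of the genes of each chromosome (rows) from their means over the 6 samples, per sample (columns, CNOT7 over-expression left of the black line and vector control right of it). Values of at least 0.1 in size are printed; chromosome 8 is at 0.33 in CNOT7 replicate 1 and chromosome 3 at -0.30 in vector control replicate 2.

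On chromosome 2 the difference between the groups followed vector control replicate 1. Of its 861 genes 677 lay higher, with a median of 0.09, and for 57 (6.62%) the groups did not overlap on the higher side, against 3.11% of all genes at this level. The medians were 0.00, 0.05 and 0.11 in CNOT7 over-expressing cells, against -0.21, 0.02 and 0.05 in vector control cells, and the difference was 0.01 without vector control replicate 1. Norad and Smim26 lie there, and with the chromosome medians subtracted they differed by 0.25 and 0.24. Of the 517 genes of chromosome 6, the groups did not overlap for 33 (6.38%) on the higher side, and for 17 after the subtraction. Its medians were 0.14, -0.05 and -0.02 in CNOT7 over-expressing cells, against -0.08, 0.07 and -0.04 in vector control cells. The brightest probe set of Erc1 and that of Mkrn2 lie there and differed by 0.36 and 0.18 after the subtraction. Chromosome 13 lay lower through CNOT7 replicate 3. Of its 387 genes 307 lay lower, with a median of -0.10, and for 26 (6.72%) the groups did not overlap on the lower side, against 2.45% of all. Without CNOT7 replicate 3 its median was 0.00. Elovl7, Pgbd1 and Pdlim7 lie there and differed by -0.29, -0.38 and -0.27 after the subtraction. On chromosome 15 the shift was confined to segments, so the subtraction of whole-chromosome medians did not touch it. In gene order of GRCm38.p6, the 25 genes from Atad2 to Ndrg1, which include Myc and Fbxo32, all lay lower, with a median of -0.32. That was the lowest of 417 windows of 25 genes, of which 380 lay within 0.1 of 0. The window had medians of -0.02, 0.09 and -0.56 in CNOT7 over-expressing cells, against 0.53, -0.18 and 0.11 in vector control cells. The window from Eif3d to Pla2g6, with Pick1 and Ankrd54, had medians of -0.03, 0.05 and -0.51 in CNOT7 over-expressing cells, against 0.29, 0.05 and 0.05 in vector control cells. Both lay low in CNOT7 replicate 3 and high in vector control replicate 1. Tob2, on the same chromosome, lay higher, in the opposite direction to these segments, and its difference after the subtraction was 0.33.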

How the data were processed

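Total RNA of 14 4T1 samples was hybridized to Affymetrix Mouse Gene 1.0 ST arrays. The authors deposited log2 intensities made by RMA in the R package oligo (named in the submitters' processing notes; versions not given in the sources used here), and these log2 values were used as deposited. Columns of samples outside this series: 0. Of 35556 probe sets, 21789 paired with exactly 1 gene symbol and 13767 with none or several. All 14 samples in 5 groups entered a single linear model (package limma 3.58.1, R version 4.3.3, moderated with 9 residual and 2.09 prior degrees of freedom), and the contrast was over-expression minus vector control. Tests were two-sided, with Benjamini-Hochberg adjustment over all tested probe sets. Alternatives were the methods' t-test, 6 samples only, a replicate block, a score covariate, other scaling, filters, priors and weights, the whole table, and each sample left out.

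Named genes were Cnot7, the other CCR4-NOT subunits and the adaptors; the 8 largest differences and 8 smallest p in each direction among genes with no overlap, a higher group mean of at least 6 and an unadjusted p under 0.05; the 6 largest differences in each direction whatever the overlap; the 10 narrowest intervals within 0.25 of 0 at a mean of at least 8; and the 2 to 4 members of a list with the smallest p. The probe set with the highest mean stood for a gene. Predicted genes, small RNAs, olfactory and vomeronasal receptors and histone genes were counted and not named by the rule. Small RNAs, Hmgcs1, Irf7, Car9, Hspa5, Dcn and other list members outside this rule were named after their values were seen. The 35 written lists, 6 lists by symbol pattern, 3 study lists and 3 lists added after values were seen were chosen, like the comparison, with earlier results of these data known. The labels link same-numbered samples (number after the point in the titles) by nothing more than the number, so samples were not paired. Chromosomes and gene order came from RefSeq (GRCm38.p6). The fit was tested on simulated data. The number of arrays limits the precision.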

Additional observations from a re-analysis of the deposited data

How the results depend on the processing

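The count of 0 calls held in both directions under every alternative run except the one without vector control replicate 3, in which 1 probe set was called lower (0 to 1 over the fits that leave out a sample). It was Ang2 (named after its values were seen), at 4.47, 4.42 and 4.43 in CNOT7 over-expressing cells and 5.57, 5.47 and 4.50 in vector control cells, around the background limit. The count at an unadjusted p under 0.05 was 562, and it was 327 with dim probe sets left out, 880 with array weights and 1305 over all probe sets of the table. It ranged from 453 to 739 without a sample. Probe sets without overlap numbered 1682, 1113 with dim probe sets left out and 3114 over the whole table, and 3326 to 4342 with 5 samples, where fewer samples make a separation more frequent. Intervals within 1 of 0 numbered 33730 over the whole table. Whole-table and dim-filtered counts differ in the number of probe sets tested.

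With the number after the point as a replicate block, 0 probe sets were called and 523 (14 samples) or 548 (6 samples) had an unadjusted p under 0.05. The block changed no call. Deviations of same-numbered samples from the 2 groups correlated at r = -0.18 to 0.29, and those of differently numbered ones at -0.15 to 0.16. The highest value belonged to vector control replicate 3 and CNOT7 replicate 3, which share a number. The Cnot7 difference of 0.00 turned to -0.021 after repeated quantile normalization, -0.0013 after median centring and -0.051 with chromosome medians subtracted (added after the values were seen), and ranged from -0.20 to 0.14 without a sample. Esrp1 (-1.50) turned to 0.15 without CNOT7 replicate 3 and ranged from -2.65 to 0.15 without a sample. Among single genes and list medians, 5411 values moved by less than the spread between replicates, 41 by more and Esrp1 as given. In all 143 of these values changed sign, 12 of them among the 41.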
